A study of Mus musculus with 6 samples.

Results

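The genes described here pattern the midbrain, the isthmus and the hindbrain of the mouse embryo. They are Otx1, En1, En2, Wnt1, Pax2, Pax8, Fgf8, Gbx2 and Egr2, taken as every probe set that the array's annotation ties to exactly 1 of these symbols. Of the 9 listed genes 8 had such a probe set, among 18193 genes named on the array, and they had 10 probe sets in all. Pax2 had none, so its expression was not analysed here. Each probe set reads a transcript through several short probes, which the scanner software combines into 1 signal.

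Whole mouse embryos of embryonic day 8.5 were compared, 3 of them wild type and 3 Tcof1+/- littermates, with a separate Affymetrix whole-genome mouse array for each. The heterozygotes carry 1 altered copy of Tcof1, which encodes the nucleolar protein treacle, whose human counterpart is mutated in Treacher Collins syndrome. Neither the strain nor the making of the allele is described in the sources used here. No agent was given to either group, as far as the labels say. In a whole embryo, fewer cells of a type and less RNA per cell cannot be told apart.

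The isthmus is the constriction between midbrain and hindbrain, and it acts as a signalling centre for both. It forms where the Otx territory of the forebrain and midbrain meets the Gbx2 territory of the anterior hindbrain. Wnt1 on the anterior side and Fgf8 on the posterior side are its secreted signals, and Pax2, Pax8 and the Engrailed genes En1 and En2 form a network with them that holds the border in place. Further back, the hindbrain is divided into rhombomeres, and Egr2, also called Krox20, is switched on in a pair of the odd-numbered ones.

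Promoter sequence from RefSeq (GRCm38.p6) was available for 6 of the 9 genes, in 12 windows that each ran from 250 bases before a transcription start to 50 after it. Egr2 had 5 of these windows, and its sequences are shown because it was the member with 2 tested probe sets that gave unlike values. In 4 of the 5 windows stood a CArG box, the site of serum response factor, searched on both strands; 3 of the windows share 1 match, and the 2 distinct matches are in capitals below, each starting 72 bases before a start site. Of all 32851 promoter windows of this length, 1.63% held such a match. The stretches lie on the plus strand at chr10:67537456-67537535 and chr10:67537759-67537838, 5′ to 3′.
Egr2 upstream start: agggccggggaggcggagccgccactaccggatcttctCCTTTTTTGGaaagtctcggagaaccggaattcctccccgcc
Egr2 downstream start: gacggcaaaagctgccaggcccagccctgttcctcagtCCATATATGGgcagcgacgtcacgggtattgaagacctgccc

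A core of the paired-domain site bound by the Pax2, Pax5 and Pax8 family, GCGTGAC on either strand, was found in 1 of the 12 windows, that of En1, against 2.09% of all windows. It is shown in capitals because the Engrailed genes are known to act downstream of Pax genes at the isthmus, and it lies just after the start site, on the plus strand at chr1:120602507-120602536. The homeodomain cores TAATCC (Otx class) and TAATTA (Engrailed and Gbx class) were in 0 of the 12 windows, against 7.06% and 5.29% of all windows. The motifs do not overlap one another in the windows shown. A match describes letters and shows no binding.
En1 start region: ctcgctctctgggcacagctgaGCGTGACa

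The arrays were first checked as a whole. The brightest Tcof1 probe set gave signals of 382 to 393 in wild types and 179 to 231 in heterozygotes. After controls were set aside, 27022 of 45037 probe sets, the brighter ones by mean, were tested with limma, a linear model fitted across all probe sets, with Benjamini-Hochberg adjustment of p. In that fit 22 of 27022 (0.0814%) passed at an adjusted p under 0.05. Differences are given as heterozygote minus wild type on a log2 scale, after 1.87 was added to each signal, which understates the change of dim genes. The labels call the embryos biological replicates, and their number, 3 per genotype, limits the precision of each value.

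None of the patterning genes passed this test. The 8 tested probe sets, which stood for 7 genes, had limma adjusted p from 0.737 to 0.979. The lowest values lay in heterozygous embryos 1 and 2 on En2, on Wnt1 and on 1 of the 2 Egr2 probe sets, while heterozygous embryo 3 was within the wild-type range on each of these. Pax8 was the member whose genotypes did not overlap, and Fgf8 had the largest positive difference.

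At an unadjusted p under 0.05 in limma, 2 of the 8 probe sets were lower in heterozygotes and 0 higher, where 3.21% of all tested probe sets were lower and 3.01% higher. Genotypes did not overlap for 1 of 8 probe sets in the lower direction and 0 in the higher, against 6.18% and 6.0% of all tested probe sets. Of the 8 differences 6 were negative and 2 positive, with a median of -0.27; over all 27022 probe sets 49.1% were negative. These counts describe a short list and were not tested.

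**Figure D1:**
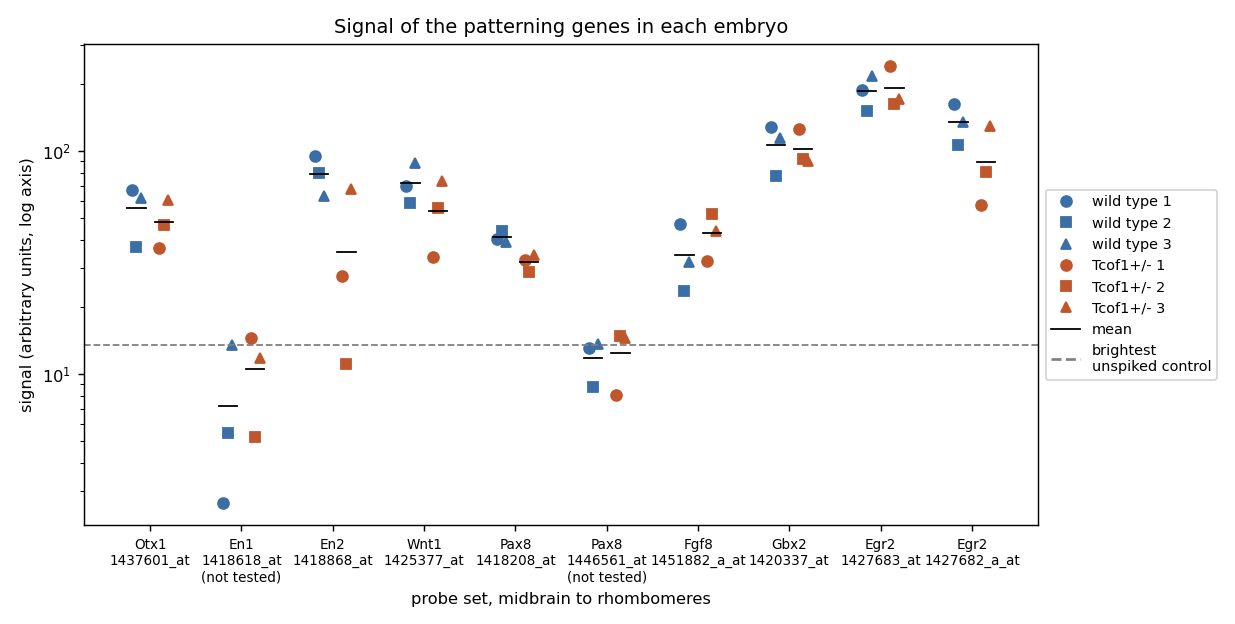
Signal in arbitrary units on a log axis for each of the 10 probe sets, ordered from midbrain to rhombomeres, with 1 point per embryo (blue wild type, orange Tcof1+/-, shape by replicate number) and the mean of each genotype as a black bar. The dashed line is the highest signal of a bacterial control probe set without a spiked target on any of the arrays, 13.5; En1 and the dimmer Pax8 probe set lie around it, and En2 is spread most widely among heterozygotes.

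Otx1 encodes a homeodomain factor of the forebrain and midbrain. Its signal (probe set 1437601_at) was 67.3, 37.1 and 61.9 in wild-type embryos 1, 2 and 3, and 36.7, 46.7 and 60.6 in heterozygous embryos 1, 2 and 3. The genotypes overlapped, with the lowest wild type next to the lowest heterozygote. The log2 difference was -0.19 (95% interval -0.80 to 0.43, limma adjusted p = 0.922). With a single wild type left out it was -0.03 (embryo 1), -0.44 (embryo 2) or -0.09 (embryo 3), and with a single heterozygote left out -0.01 (embryo 1), -0.18 (embryo 2) or -0.36 (embryo 3).

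En2, the Engrailed gene that stays on longest in midbrain and cerebellum, had the widest spread of the members. Its signal (1418868_at) was 95.6, 79.7 and 62.9 in wild-type embryos and 27.6, 11.1 and 67.6 in heterozygous embryos 1, 2 and 3. Heterozygous embryos 1 and 2 were at 34.8% and 14.0% of the wild-type mean and below each wild type, while heterozygous embryo 3, at 85.1%, was above the lowest wild type. The value of heterozygous embryo 2 was near background, with the brightest unspiked control at 8.55 on the same array.

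The mean En2 signal was 79.4 ± 16.4 in wild types and 35.4 ± 29.0 in heterozygotes (SD, n = 3 each). The log2 difference was -1.43 (SE 0.50, 95% interval -2.53 to -0.32), with an unadjusted limma p of 0.0168 and an adjusted p of 0.737. The SD on the log2 scale was 0.30 among wild types and 1.21 among heterozygotes. Replicates 1 and 2 were scanned on one day and replicate 3 on another; the former gave a difference of -2.19 and the latter, with 1 array per genotype, 0.10. Without heterozygous embryo 2 it was -0.82, and without heterozygous embryo 3 it was -2.04 with an adjusted p of 0.191.

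En1, the other Engrailed gene, comes on first at the midbrain and hindbrain border. Its probe set, 1418618_at, was too dim to be tested. It gave 2.63, 5.43 and 13.5 in wild types and 14.5, 5.22 and 11.8 in heterozygotes, near the brightest unspiked control, which reached 8.55 to 13.5 depending on the array. En1 was above that control on 3 of 6 arrays, those of wild-type embryo 3 and heterozygous embryos 1 and 3.

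Wnt1 is the secreted signal of the midbrain side of the isthmus and of the dorsal midline. Probe set 1425377_at was at 69.5, 58.9 and 88.2 in wild types and 33.6, 55.7 and 73.2 in heterozygotes. Heterozygous embryo 1, at 46.5% of the wild-type mean, was the lowest of the 6 embryos, embryo 2 was just under the lowest wild type, and embryo 3 was among the wild types. On the log2 scale heterozygotes differed by -0.45 (95% interval -1.08 to 0.17, limma adjusted p = 0.840), and it became -0.15 or -0.69 when heterozygous embryo 1 or 3 was left out and -0.30 when wild-type embryo 3 was.

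Pax8 encodes a paired-domain factor of the isthmus that is also made in the otic placode and the intermediate mesoderm. Its brighter probe set, 1418208_at, gave 40.4, 43.7 and 39.2 in wild types and 32.4, 28.6 and 34.1 in heterozygotes. All 3 heterozygotes were below all 3 wild types, by a small margin, with means of 41.1 ± 2.35 and 31.7 ± 2.83 (SD, n = 3 each). The log2 difference was -0.36 (95% interval -0.83 to 0.12), which did not pass (unadjusted limma p of 0.126, adjusted p = 0.835).

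The dimmer Pax8 probe set, 1446561_at, was not tested and gave 8.77 to 13.6 in wild types and 8.06 to 14.8 in heterozygotes, above the brightest unspiked control on 3 of 6 arrays. Of the 12 genes listed for otic placode and intermediate mesoderm, 8 were tested, 3 with negative and 5 with positive differences (median 0.03). The summed signal of the 10 with a probe set was 1141 to 1224 in wild types and 1141 to 1355 in heterozygotes. None of these genes was listed at 0, and their part in the Pax8 values was not tested.

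Fgf8 is the growth factor of the isthmus and is also made in the tail bud, the pharyngeal region and the anterior forebrain. Probe set 1451882_a_at was at 47.0, 23.6 and 31.7 in wild types and 32.3, 52.2 and 44.1 in heterozygotes. The genotypes overlapped and the wild types alone spanned most of the range. This gave a log2 difference of 0.34 (95% interval -0.32 to 1.0, limma adjusted p = 0.872). Leaving out embryo 2 brought it to 0.12 (the wild type) or 0.19 (the heterozygote), and leaving out embryo 1 to 0.59 (the wild type) or 0.52 (the heterozygote). Among tail bud and presomitic genes 6 of 11 tested were negative (median -0.02), and the summed signal was 2471 to 3396 in wild types and 2500 to 3246 in heterozygotes.

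Gbx2 encodes the homeodomain factor of the anterior hindbrain that opposes the Otx genes. Its signal (1420337_at) was 129, 77.6 and 114 in wild types and 126, 92.0 and 90.7 in heterozygotes. The genotypes overlapped, with wild-type embryos both the highest and the lowest of all 6. This gave a log2 difference of -0.04 (95% interval -0.52 to 0.44, limma adjusted p = 0.979), and its sign turned on the first scan day alone (0.10).

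Egr2, the zinc finger factor of the rhombomeres, gave unlike values on its 2 probe sets, which are both annotated to the same transcript record. The brighter one, 1427683_at, was at 188, 152 and 218 in wild types and 242, 163 and 171 in heterozygotes. Heterozygous embryo 1 was the highest of all 6 embryos there. The log2 difference was 0.04 (95% interval -0.37 to 0.45, limma adjusted p = 0.977), with the sign turned without heterozygous embryo 1 (-0.14) or wild-type embryo 2 (-0.10).

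The dimmer Egr2 probe set, 1427682_a_at, was at 163, 107 and 135 in wild types and 57.5, 80.3 and 130 in heterozygotes. Here heterozygous embryo 1 was the lowest of all, at 42.6% of the wild-type mean, embryo 2 was next, and embryo 3 was among the wild types. The log2 difference was -0.64 (95% interval -1.26 to -0.03), with an unadjusted limma p of 0.0418 and an adjusted p of 0.787. By scan day it was -0.94 (replicates 1 and 2) and -0.05 (replicate 3), and it was -0.37 without heterozygous embryo 1. In Egr2 as the mean of both probe sets the difference was -0.30.

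**Figure D2:**
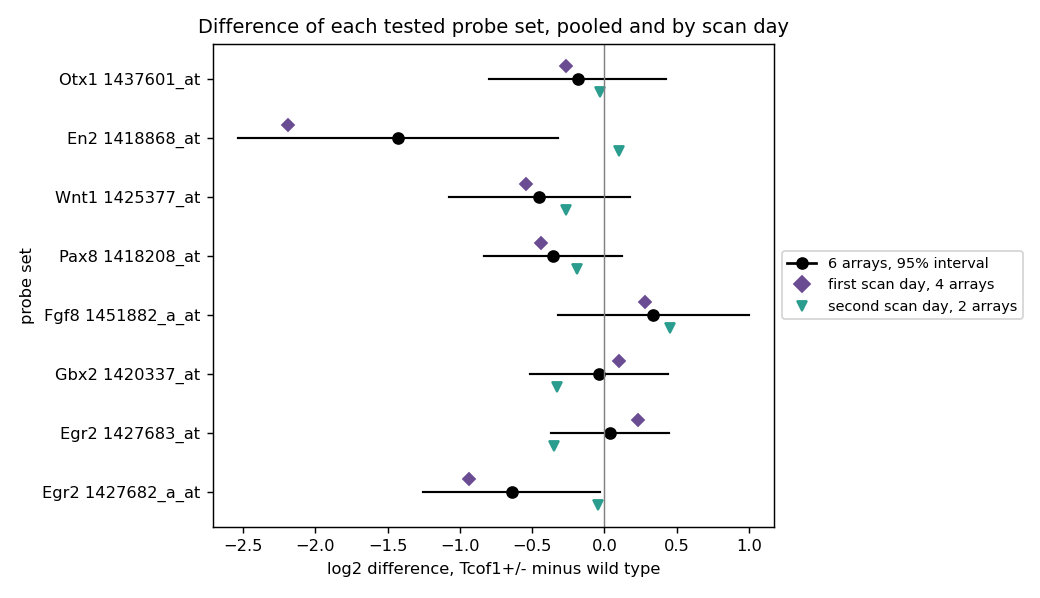
Log2 difference (Tcof1+/- minus wild type) of each of the 8 tested probe sets from all 6 arrays, as a black point with its 95% limma interval, and by scan day, from the 4 arrays of replicates 1 and 2 (diamond) and the 2 of replicate 3 (triangle). En2 differs most between scan days, at -2.19 and 0.10, and the intervals of En2 and of Egr2 1427682_a_at are the ones that leave out 0 before adjustment.

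Read embryo by embryo, the negative values were not spread evenly over the heterozygotes. With 1 probe set per gene, the brightest tested, the median of the 7 genes relative to the wild-type mean was -0.32, -0.20 and -0.10 in heterozygous embryos 1, 2 and 3. It was 0.28, -0.27 and 0.13 in wild-type embryos 1, 2 and 3, so the medians of the genotypes overlapped. Relative to that mean, heterozygous embryo 1 was at -1.04 on Wnt1 and -1.18 on Egr2 1427682_a_at, and embryo 2 was at -2.63 on En2. The Egr2 probe set named here is the dimmer one, which is not part of these medians. The same embryos were above the wild-type mean elsewhere, embryo 1 at 0.39 on Egr2 1427683_at and 0.26 on Gbx2, and embryo 2 at 0.64 on Fgf8.

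Several array measures differed between these same embryos. The median deviation of 7 tested primitive erythroid genes from the wild-type mean was -4.33, -0.98 and 0.15 in heterozygous embryos 1, 2 and 3, against -0.69 to 0.60 in wild types. The summed signal of the 9 erythroid genes with a probe set was 5858 to 13849 in wild types and 316 to 11342 in heterozygotes, with none listed at 0. The log2 excess of the 3 prime over the 5 prime Gapdh control, which is larger in more degraded RNA, averaged 0.91 in wild types and 0.76 in heterozygotes and was smallest, at 0.68, in heterozygous embryo 2. Xist, transcribed in female cells, gave 1237, 1435 and 1674 in wild-type embryos 1 and 2 and heterozygous embryo 1, and at most 5.12 in the others. The part of these measures in the En2, Wnt1 and Egr2 values was not tested beyond a fit with Xist as a covariate, which gave -1.41 for En2, -0.64 for Wnt1 and -0.77 for Egr2 1427682_a_at. The other tested probe sets were at 0.05 (Egr2 1427683_at), -0.01 (Gbx2), 0.28 (Fgf8), -0.30 (Otx1) and -0.34 (Pax8) with Xist in the fit. In that fit, added after seeing the data, 3 of the 8 probe sets had an unadjusted p under 0.05, against 1411 of all 27022 tested. The median of the 7 genes was -0.30, and 0 of the 8 passed (lowest limma adjusted p of 0.921).

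**Figure D3:**
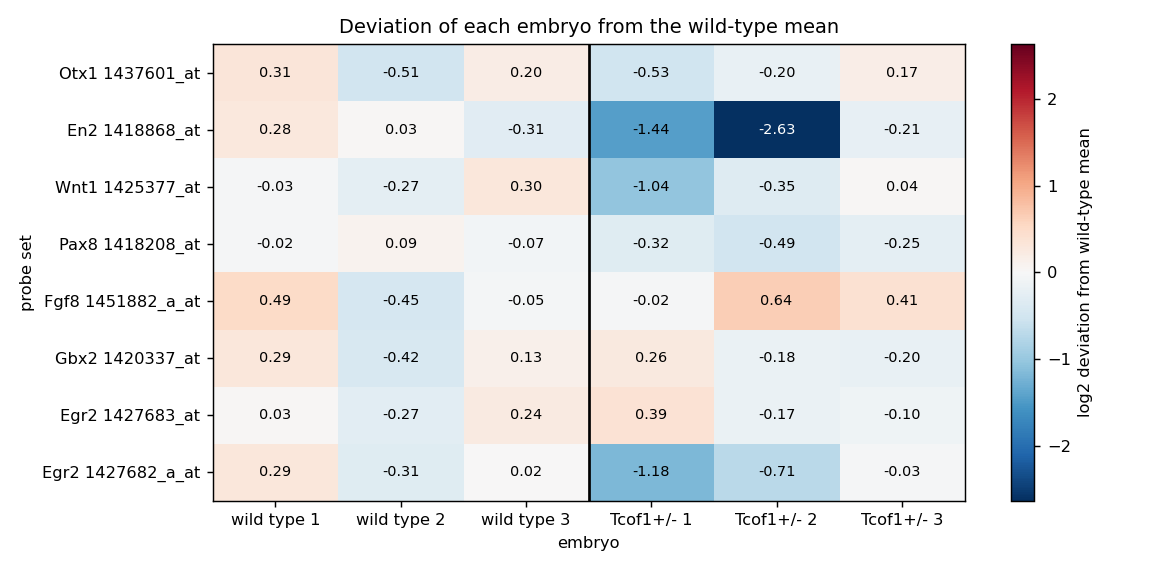
Log2 deviation of each embryo (columns) from the wild-type mean for the 8 tested probe sets (rows), with the value printed in each cell and blue below and red above the mean. The deepest values are those of heterozygous embryos 1 and 2 on En2, at -1.44 and -2.63, and heterozygous embryo 3 is at -0.21 there.

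Other genes of the isthmic network showed no common direction. Of 20 listed genes 19 were tested, on the brightest probe set of each, and 0 passed (limma adjusted p from 0.649 to 0.995). Of these, 11 were negative and 8 positive, with a median of -0.05. At an unadjusted p under 0.05 in limma, 2 were lower and 1 higher, where 3.21% of all tested probe sets were lower and 3.01% higher. Genotypes did not overlap for 3 lower and 1 higher, against 6.18% and 6.0% of all tested probe sets.

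The 3 with the smallest p were Otx2, Fgf15 and Spry1. Otx2, the homeodomain gene of forebrain and midbrain that sets the anterior side of the border, was at 378, 301 and 417 in wild types and 241, 224 and 291 in heterozygotes, without overlap (log2 -0.53, limma adjusted p = 0.649). Fgf15, a fibroblast growth factor gene of the neural tube, was at 147 to 175 in wild types and 179 to 215 in heterozygotes (log2 0.33, adjusted p = 0.781). Spry1, a feedback inhibitor of fibroblast growth factor signalling, was at 298 to 329 and 236 to 300 (log2 -0.27, adjusted p = 0.793).

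A few further network genes were picked out after their values were seen. Dmbx1, a homeodomain gene of the midbrain, was at 36.7, 34.0 and 28.6 in wild types and 37.3, 5.39 and 37.1 in heterozygotes, so heterozygous embryo 2 alone was low, as it was lowest on En2. That value of 5.39 was below the brightest unspiked control on the same array, 8.55. Pax5, a paired-domain gene of the isthmus, was at 25.2, 18.8 and 26.1 in wild types and 19.1, 9.28 and 24.5 in heterozygotes, again with heterozygous embryo 2 the lowest. The 9.28 was just above that control, so both low values lie near background. Other genes of the list ran the other way in that embryo, such as Fgf15 and Fgf18, highest there at 215 and 72.1, and the list's median in it was 0.02 above the wild-type mean. Neither Dmbx1 nor Pax5 passed (limma adjusted p of 0.876 and 0.871).

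Genes of hindbrain segmentation were also without a common direction. Of 25 listed genes 19 had a probe set and were tested, 8 negative and 11 positive, with a median of 0.02, and 0 passed (limma adjusted p from 0.787 to 0.994). At an unadjusted p under 0.05 in limma, 1 was lower and 0 higher, against 3.21% and 3.01% of all tested probe sets. The smallest p belonged to Pbx2, a Hox cofactor gene (366 to 492 in wild types, 334 to 362 in heterozygotes, log2 -0.28), to Fgf3, a growth factor gene of the hindbrain (log2 -0.37), and to Hoxb1, the Hox gene of the fourth rhombomere (470 to 627 and 524 to 747, log2 0.28).

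The lists for the forebrain, the neural tube at large and the neural crest lay lower than these. The neural tube list is not confined to any region, and expression by region was not measured for any list. The values of these lists therefore do not place lower signal outside the midbrain and hindbrain. Of 9 tested forebrain genes 9 were negative (median -0.48), and of 11 genes of the neural tube at large 10 were negative (median -0.36), with 4 and 7 at an unadjusted p under 0.05 in the lower direction. All 12 tested neural crest genes were negative, with a median of -0.22, and 4 were lower at that unadjusted limma p. Of all tested probe sets 3.21% were lower at the same threshold. The median of all 3 lists was below the wild-type mean in each heterozygous embryo, whereas the isthmic and hindbrain lists had values on both sides of it. Their genes were read in whole embryos, so these values do not show that the midbrain and hindbrain were unchanged. No gene of these lists passed, and the difference between lists was not tested. For the forebrain the 3 smallest p were those of Lhx2 (log2 -0.96), Pax6 (-0.58) and Lhx5 (-0.82), all regulators of forebrain regions. For the neural tube they were Sox1 (-0.63), Sox21 (-0.39) and the Wnt antagonist gene Sfrp1 (-0.36), and for the crest Crabp1 (-0.45), Tfap2b (-0.66) and Tfap2a (-0.57). These lists were drawn up with earlier results of these embryos known, in which brain and crest genes were already seen to be low.

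Hes5, a Notch target of neural progenitors picked out after its values were seen, had the lowest difference of the neural tube list. It was at 271, 451 and 227 in wild types and 63.9, 99.8 and 279 in heterozygotes (log2 -1.30, limma adjusted p = 0.737). Heterozygous embryos 1 and 2 were below all wild types and embryo 3 was among them, as on En2. The lowest was embryo 1 here and embryo 2 on En2. These values are from the brighter of the 2 Hes5 probe sets.

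The lists of other tissues gave these values. In the pharyngeal arch and second heart field list 4 of 8 tested genes were negative (median 0.04), with the smallest p for Isl1 (log2 0.17), Hand2 (0.09) and Hoxa3 (-0.14), and the summed signal was 1116 to 1137 in wild types and 1102 to 1294 in heterozygotes. In the otic and intermediate mesoderm list the smallest p were those of Lhx1 (log2 0.30), Osr1 (0.19) and Dlx5 (-0.15), and in the tail bud list those of Hes7 (-0.38), Cdx1 (-1.0) and Cdx2 (0.19). All 7 tested erythroid genes were negative, with Alas2 (-1.40), Klf1 (-0.93) and Hba-x (-2.10) at the smallest p, and 0 of them passed.

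**Figure D4:**
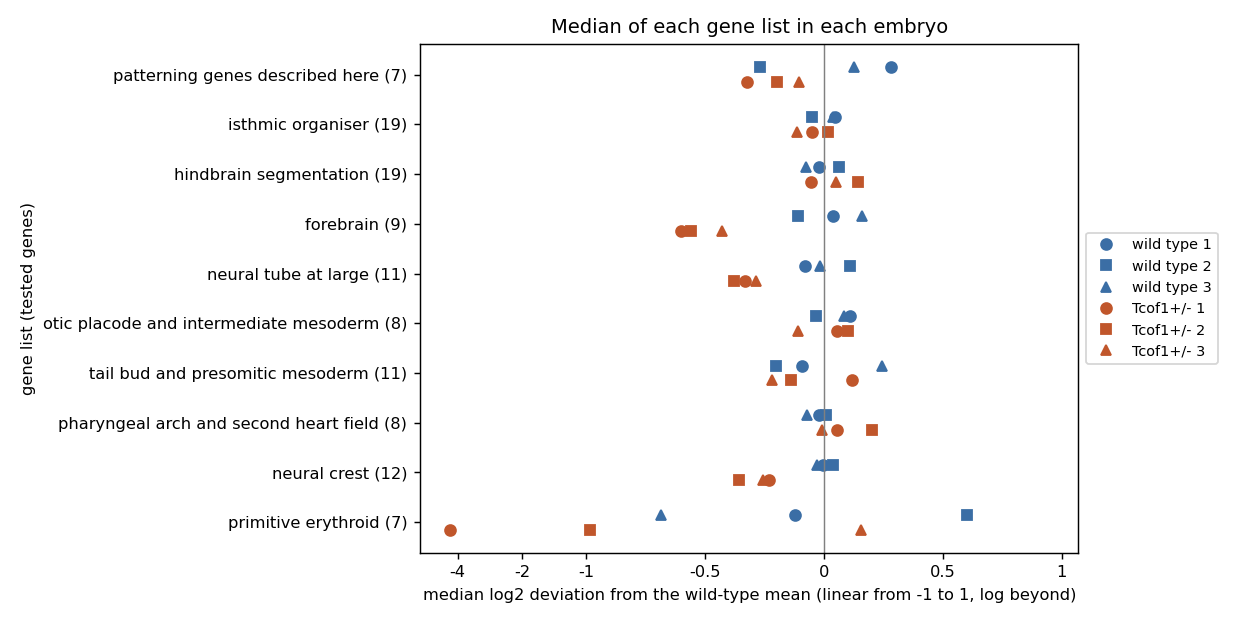
Median log2 deviation from the wild-type mean of the patterning genes and of 9 other gene lists, with 1 point per embryo and the number of tested genes in brackets; the axis is linear between -1 and 1 and logarithmic beyond. The patterning genes overlap between genotypes, the forebrain, neural tube and crest lists do not, and the erythroid list of heterozygous embryo 1 is at -4.33. The lists were drawn up with earlier results of these embryos known, and the difference between lists was not tested.

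The genes whose course over the 6 embryos was most like the mean of the 7 patterning genes were Gpihbp1, Camk1, Neil3, Abtb1, Slc48a1 and Iba57. Likeness was the root mean square difference of centred log2 values over the 6 embryos, which was 0.07 to 0.09 for these genes and had a median of 0.30 over 12850 genes ranked. Their log2 differences between genotypes were -0.38 for Gpihbp1 to -0.20 for Abtb1, and none passed (limma adjusted p from 0.824 to 0.868). The profile they were picked to match was itself lower on average in heterozygotes. Their negative differences therefore follow from the choice and are no separate result.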

How the data were processed

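The intensity values used, 1 for each probe set on each array and on a linear scale, are as the authors deposited them. Per the submitters' processing notes they came from GCOS, the Affymetrix scanner software, with no version or algorithm stated. Labelling started from 100 ng of total RNA and 20 µg of cRNA was hybridised, per the labels' protocols. Scan day and fluidics module were read from the instrument records, per the file headers: replicates 1 and 2 of both genotypes were scanned first, replicate 3 of both on a second day, and each module ran arrays of a single genotype, so genotype and module cannot be told apart.

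Control probe sets (64) were left out, values were taken as log2(signal + 1.87), 1.87 being their 10th percentile, and the 40% with the lowest mean were not tested. Differences were fitted in limma 3.58.1 (R 4.3.3; lmFit, eBayes with intensity trend, genotype alone), adjusted over all 27022 tested probe sets. The fit was tested on simulated data. Annotation gave 34945 probe sets with 1 symbol, 932 with several and 9160 with none; updating symbols through RefSeq (GRCm38.p6) changed 0.

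Members and lists were chosen with earlier results of these data known. Named were every member, the 3 genes of each list with the smallest p and the genes most like the members in profile; Dmbx1, Pax5, Fgf18 and Hes5 were picked after their values were seen. Alternatives were pseudocounts, normalization, filters, no trend, array weights, replicate and scan day blocks, the first scan day alone and each array left out; Xist as a covariate was added after seeing the data. Figures used matplotlib 3.10.9.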

Additional observations from a re-analysis of the deposited data

How the results depend on the processing

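No tested member passed in any of the 18 alternatives, and the median difference of the 7 genes, or of those still tested, stayed negative, from -0.36 (without heterozygous embryo 3) to -0.03 (without wild-type embryo 1). Otx1, En2, Wnt1, Pax8, Fgf8 and Egr2 1427682_a_at kept their sign in each alternative that tested them; En2 ran from -2.19 to -0.82 (limma adjusted p from 0.191 to 0.933). Fgf8 and Pax8 were too dim for the 60% filter. Gbx2 turned positive on the first scan day alone (0.10) and ran from -0.25 to 0.11 when 1 array was left out, and Egr2 1427683_at ran from -0.14 to 0.16; the cause was not tested. As the mean of both probe sets, Egr2 differed by -0.30 and Pax8 by -0.16. Over all probe sets, the 22 calls became 0 without the intensity trend (1571 at an unadjusted p under 0.05), 10 with the replicate block, 14 with scan day as a block, 12 on the first scan day alone, 10 with Xist as a covariate and 8 to 20 with 1 array left out. Same-numbered embryos did not deviate together (correlations -0.11 to -0.02). These correlations rest on deviations from means of 3 arrays, so they cannot show whether the numbers pair embryos. Same-numbered embryos did share a scan day. The replicate block changed no member's call. En1 and the dimmer Pax8 probe set were above the brightest unspiked control of their own array on 3 of 6 arrays each, which limits what they show.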
